A study of Homo sapiens with 45 samples.

Results

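The replication-dependent histone genes were followed across 45 single cells of the human embryonic stem cell line H1 (passage 40), an established line. The members were all rows of the deposited tables whose symbol starts with HIST1H, HIST2H, HIST3H or HIST4H, which gave 72 of 23045 rows. By type they are 6 rows of linker histone H1 and, for the core histones, 17 rows of H2A, 20 of H2B, 14 of H3 and 15 of H4. By cluster, 55 rows belong to HIST1 on chromosome 6, 13 to HIST2 and 3 to HIST3, and 1 to HIST4 on chromosome 12. The cells fall into 4 groups: fixed cells prepared by FRISCR (DAPI+, 12 cells), live cells prepared by FRISCR (DAPI-, 15 cells), fixed cells lysed with Triton X (DAPI+, 7 cells) and live cells lysed with Triton X (DAPI-, 11 cells). FRISCR was made to free and read RNA from cells that have been fixed, and Triton X is a detergent used for plain lysis. Some labels spell the procedure FRSCR, the titles write PLRC where the cells had FRISCR and RLT where they had Triton, and the extraction text describes cortical tissue. All cells came from Matrigel cultures in mTESR1 dissociated with Accutase, and libraries were made by Smart-Seq2 and Nextera XT. No label tells separate cultures apart. Each of the 4 groups is therefore 1 sample whose cells do not replicate it, and differences between groups carry no test.

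Replication-dependent histones are made in bulk during S phase, when new DNA has to be wrapped into nucleosomes. H2A, H2B, H3 and H4 form the core of the nucleosome and H1 binds the linker DNA between cores. Their messages are unusual among animal mRNAs because most end in a conserved stem-loop bound by SLBP rather than in a poly(A) tail. Smart-Seq2 primes reverse transcription with oligo(dT), which pairs with runs of A. Histone variants such as H2AFZ and H3F3B are instead made throughout the cell cycle from ordinary polyadenylated mRNA, and a few replication-dependent genes are known to give polyadenylated transcripts as well.

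The stem-loop was searched in the transcripts of GENCODE release 29, in which all 72 symbols were found. The motif of 16 bases reads GGNNCTT, then NTN, then AGNNCC, with N any base, and was sought on both strands. It was present in 33 members (45.8%), against 78 of 19599 other protein-coding genes (0.398%), and 1 member had it on the reverse strand. It was present in 7 H2A, 12 H2B, 6 H3 and 8 H4 genes and in 0 H1 genes. Of the 39 members without it, 32 have only transcript models without an untranslated region. HIST1H1A, HIST1H1B, HIST1H1C and HIST1H1D are among the 32, so the 0 for H1 is in part set by the models. The HIST1H4C model has an untranslated region and no motif. The sites of the members described most below are printed 5′ to 3′ as DNA letters with the motif in capitals. They show how alike the motif is between members whose measured levels differ. In the transcript models 6 bases follow it in HIST1H4J and 39 in HIST1H2AI. In HIST1H4E 1022 bases follow it, in HIST1H2BH 1640, in HIST2H2BE 1729 and in HIST2H2BC 109 or 5804, so it is not always at the end.
HIST1H4J: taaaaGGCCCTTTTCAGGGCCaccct
HIST1H4E: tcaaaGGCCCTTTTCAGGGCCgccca
HIST1H2AI: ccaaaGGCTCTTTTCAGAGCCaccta
HIST1H2BH: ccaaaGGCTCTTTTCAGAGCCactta
HIST2H2BE: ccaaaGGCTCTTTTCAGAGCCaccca
HIST2H2BC: ccaaaGGCTCTTTTCAGGGCCattta
HIST1H4J and HIST1H4E share every base of the motif, as do HIST1H2AI, HIST1H2BH and HIST2H2BE.

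Runs of A inside the transcripts were described by the 15-base window with the most A. HIST1H4C, the most abundant member in Triton cells, had 13 A in a window that ends 5 bases before the end of its transcript model, and 3.48% of 9999 other genes with a transcript of 300 to 800 bases had at least as many. The median window held 10.5 A in H1 genes, 10 in H2B, 8 in H2A, 8 in H3 and 8 in H4 genes, against 10 in those other genes. A member's value was the highest over all its transcript models at any length, such as 6440 bases for HIST2H2BC. The other genes were limited to 300 to 800 bases, so the medians are not on a like basis. The windows of the leading H4 and H1 members are shown with A in capitals.
HIST1H4C: AAAAAAcAAAAAcAA
HIST1H4J: tttctAtcAAtAAAA
HIST1H1A: AAgAAtccAAAAAAA
HIST1H1D: tAgAAAAAAAcAAcA
HIST1H1E: AAgAAAAAgtAgAAA
HIST1H4J, the other abundant H4 member, had 7 A, and HIST1H1A, HIST1H1D and HIST1H1E had 11 each. These letters describe the transcript models, and whether they were primed was not tested.

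Total counts per cell, in units of 1000000, ranged from 3.39 to 6.59. The cells carried the markers of their label: all 7 embryonic stem cell markers had counts, with a median summed level of 4674 counts per 1000000 (CPM) in fixed FRISCR, 4791 in live FRISCR, 1233 in fixed Triton and 4076 in live Triton cells. Endoderm markers were at 0 in every cell, and neural progenitor and mesoderm markers had medians of 0 in all 4 groups. Of 5 fibroblast markers, 3 were at 0 in every cell and the other 2 summed to medians of 26.3, 159, 43.1 and 64.6 CPM in the same order of groups. Fixed Triton libraries stood apart from the rest. After thinning to 1000000 counts they held a median of 5091 genes, against 8916 in fixed FRISCR, 9045 in live FRISCR and 9606 in live Triton cells. The row TVAS5 took 16.2% to 33.0% of their counts, against 2.76% to 13.0% in live Triton cells, and rows named for rRNA took 6.09% to 11.4%, against 0.565% to 1.90%. Results on fixed Triton cells are therefore given beside the median of all genes, and the part of these differences in the histone values was not tested. A code in the titles splits each group into 2 library sets, and within-set values are given where a comparison is made. Each group enters 2 of the 4 comparisons, so the comparisons share cells.

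Of the 72 rows, 66 had a count in some cell and 6 had none in any of the 45: HIST1H1T, HIST1H2AA, HIST1H2BA, HIST1H4G, HIST2H2AB and HIST2H2BA. HIST1H1T, HIST1H2AA and HIST1H2BA are known as testis histones. In fixed FRISCR cells 41 rows had a count in at least 1 cell, in live FRISCR cells 49, in fixed Triton cells 51 and in live Triton cells 62. A cell thinned to 1000000 counts held a median of 8 histone rows in fixed FRISCR (range 3 to 13), 8 in live FRISCR (2 to 18), 19 in fixed Triton (8 to 33) and 24 in live Triton cells (14 to 41). Without thinning the medians were 10, 10, 24 and 26. Only 27 rows reached 5 CPM in any group, and the other 45 enter no count of calls. Of the rows, 3 pairs held the same value in every cell (HIST2H2AA3 with HIST2H2AA4, HIST2H3A with HIST2H3C, and HIST2H4A with HIST2H4B), so how reads were shared within a pair is uncertain, and near-identical coding sequences make the split between other members uncertain too.

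Summed over the 72 rows, the histone level was 71.6 CPM in fixed FRISCR cells (exact 95% interval 69.4 to 73.9, 3924 counts), 78.0 CPM in live FRISCR cells (76.0 to 80.1, 5665 counts), 2691 CPM in fixed Triton cells (2672 to 2710, 78423 counts) and 709 CPM in live Triton cells (702 to 716, 41003 counts). Such intervals hold the counting error of summed reads alone. These reads carry no molecular identifiers, so the intervals do not describe numbers of molecules, and the cells of a group spread far wider. The lowest, median and highest cell had 33.7, 51.7 and 171 CPM in fixed FRISCR, 8.65, 72.7 and 212 CPM in live FRISCR, 312, 2982 and 4774 CPM in fixed Triton, and 96.9, 476 and 1691 CPM in live Triton. Every fixed FRISCR cell lay below every fixed Triton cell, while live FRISCR and live Triton cells overlapped. The 12 polyadenylated variant rows did not show this order and summed to 5254 CPM in fixed FRISCR, 4052 CPM in live FRISCR, 2925 CPM in fixed Triton and 4023 CPM in live Triton cells.

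**Figure D1:**
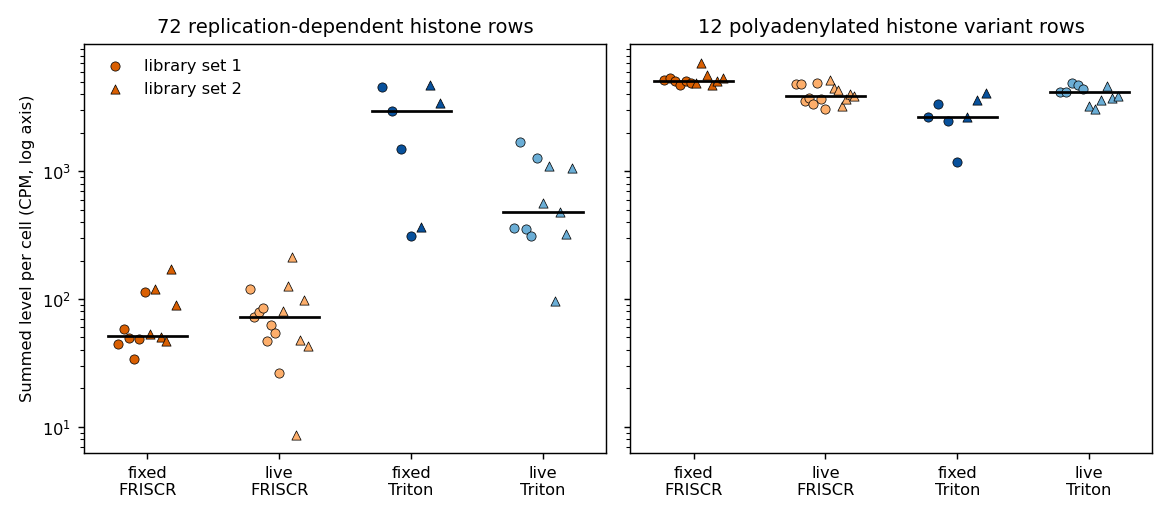
Summed level per cell in CPM on a log axis for the 72 replication-dependent rows (left) and the 12 polyadenylated variant rows (right), with a point per cell, the shape marking the library set and the line the group median. The left panel spans 8.65 CPM in a live FRISCR cell to 4774 CPM in a fixed Triton cell, while in the right panel the 4 groups lie between 1185 and 7090 CPM.

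FRISCR and Triton were compared first in live cells, where neither group was fixed. Each procedure is represented by 1 sample, so its effect cannot be told apart from other differences between the groups. The summed level was 9.09-fold lower with FRISCR (8.84 to 9.35), a log2 ratio of -3.18, with -3.54 in library set 1 and -2.85 in set 2. With any 1 cell left out it ranged from -3.35 to -2.96. The median log2 ratio of all genes was 0.12. H1 was 28.6-fold lower (25.6 to 31.9), H4 19.2-fold lower (18.3 to 20.1), H3 12.1-fold lower (10.3 to 14.4) and H2A 3.27-fold lower (3.05 to 3.50). H2B was the exception, at 31.3 CPM in live FRISCR and 27.1 CPM in live Triton cells (ratio 1.16, 1.08 to 1.23). Its log2 ratio of 0.21 was 0.05 and 0.36 in the sets and became -0.24 without live FRISCR replicate 11, in which H2B reached 162 CPM. The row HIST2H2BE alone held 797 of the 2271 H2B counts in live FRISCR cells, against 4 of 1565 in live Triton cells, so the H2B ratio leans on that row.

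Of the 72 rows, 14 had at least 5 CPM in live FRISCR or live Triton cells. Of these 11 were over 2-fold lower with FRISCR, against 6.23% of the 11067 genes at that level, 1 was over 2-fold higher, against 12.5%, and 2 were within 2-fold, against 81.3%. Members that reached 5 CPM only through Triton cells had to be lower with FRISCR, so the counts are a description. All 11 lower members were over 2-fold lower in both library sets and with any 1 cell left out.

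**Figure D2:**
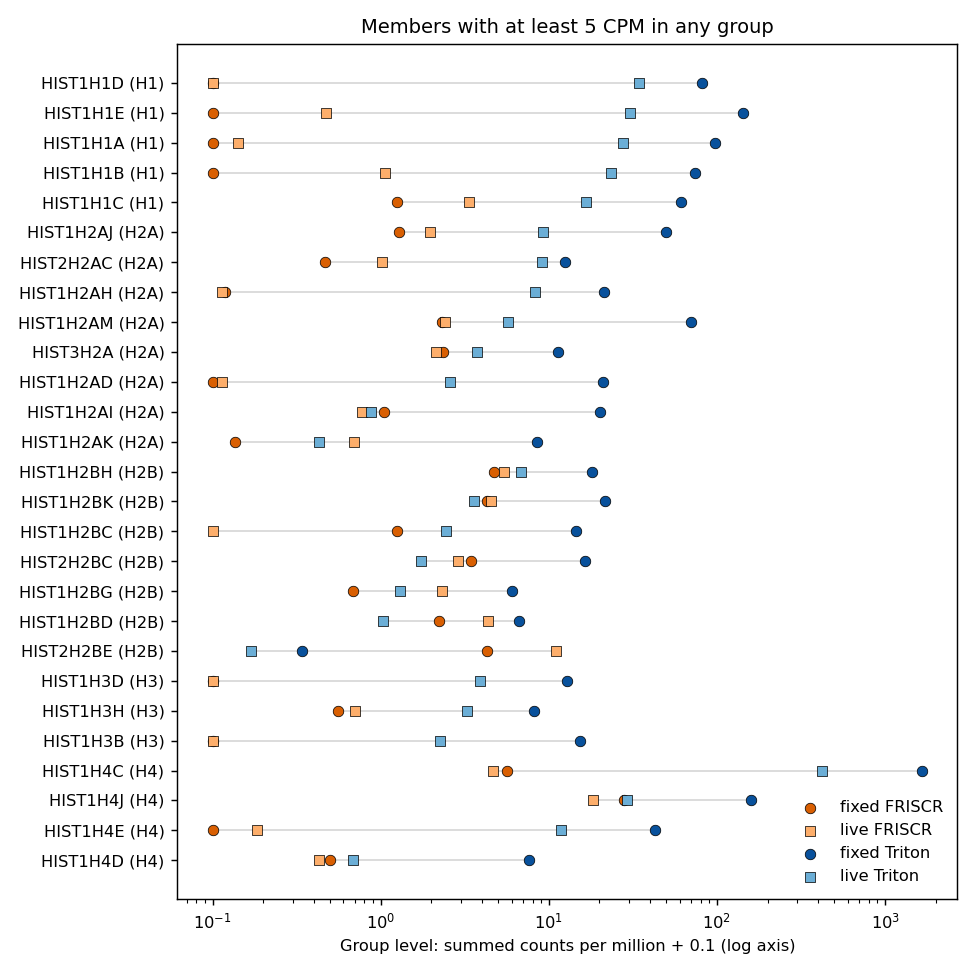
Group level of each of the 27 rows with at least 5 CPM in any group, as summed CPM plus a small constant on a log axis; points at the left edge are groups with 0 counts, and points with the same value hide each other. Triton points (blue) lie to the right of FRISCR points (orange) for all 5 H1 rows, whereas HIST2H2BE has both FRISCR points to the right. HIST1H4J and HIST1H2BH have the live Triton point beside their FRISCR points. For HIST1H2BK, HIST1H2BD and HIST2H2BC the live Triton point lies to the left of both FRISCR points.

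Linker histone rows were nearly empty with FRISCR. H1 had a count in 1 of 12 fixed FRISCR and 12 of 15 live FRISCR cells, and in all 7 fixed Triton and all 11 live Triton cells. HIST1H1D had 0 counts in the 15 live FRISCR cells, which allows up to 0.0413 CPM, while the 11 live Triton cells had 3.71 CPM at the lowest, 19.7 at the median and 135 at the highest. The groups did not overlap, and HIST1H1D was at least 832-fold lower with FRISCR against a floor of 3 counts over the group. HIST1H1A had 3 counts in live FRISCR cells and 1588 in live Triton cells, in 3 of 15 and 8 of 11 cells, and was 665-fold lower with a wide interval of 227 to 3228. HIST1H1E had 0.372 CPM with live FRISCR and 30.3 CPM with live Triton (81.5-fold lower, 55.8 to 124), and without live FRISCR replicate 5 its log2 ratio of -6.35 became -11.01. HIST1H1C, which is known to give polyadenylated transcripts as well, was the least different H1 row, with 3.25 CPM in live FRISCR and 16.6 CPM in live Triton cells (5.11-fold lower, 4.43 to 5.92). It had a count in 8 of 15 live FRISCR cells, and its log2 ratio of -2.35 became -3.02 without live FRISCR replicate 9.

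The 4 H2A rows with at least 5 CPM in either live group were all lower with FRISCR, while some scarcer rows were not, such as HIST2H2AA3 (1.86 CPM in live FRISCR and 1.68 CPM in live Triton cells). HIST1H2AM had 2.33 CPM in live FRISCR and 5.64 CPM in live Triton cells (2.42-fold lower, 2.01 to 2.94), and HIST1H2AJ had 1.87 CPM in live FRISCR and 9.17 CPM in live Triton cells (4.90-fold lower, 4.05 to 5.95). HIST1H2AJ was carried by 3 of 15 live FRISCR cells, and its log2 ratio of -2.29 became -3.36 without live FRISCR replicate 3. HIST2H2AC had 0.923 CPM in live FRISCR and 8.96 CPM in live Triton cells (9.71-fold lower, 7.52 to 12.7), and its log2 ratio of -3.28 became -3.94 without live FRISCR replicate 10. HIST1H2AH had 1 count in live FRISCR cells and 473 in live Triton cells.

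Among H4 rows the 2 most abundant members parted. HIST1H4C had 0, 2.30 and 21.1 CPM in the lowest, median and highest live FRISCR cell and 43.3, 269 and 1071 CPM in live Triton cells, so that the groups did not overlap. It was 92.3-fold lower with FRISCR (82.9 to 103), with log2 ratios of -8.21 and -5.58 in the sets and -7.10 without live FRISCR replicate 10. HIST1H4J had 0, 16.2 and 36.4 CPM in live FRISCR and 9.66, 27.1 and 57.3 CPM in live Triton cells, and these groups overlapped. It was 1.59-fold lower with FRISCR (1.48 to 1.71), with log2 ratios of -0.74 and -0.62 in the sets and between -0.80 and -0.51 with any 1 cell left out. A count of HIST1H4J was present in 12 of 12 fixed FRISCR, 14 of 15 live FRISCR, 7 of 7 fixed Triton and 11 of 11 live Triton cells, more cells than for any other member. HIST1H4E, which shares the whole stem-loop motif with HIST1H4J, had 6 counts with live FRISCR and 675 with live Triton (141-fold lower, 64.6 to 386). All 6 came from live FRISCR replicate 5, and the log2 ratio of -7.14 became a bound of -8.05 at the floor without that cell.

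H2B held the row called higher with FRISCR, HIST2H2BE, which encodes an H2B and is known to give polyadenylated transcripts as well. HIST2H2BE was 159-fold higher with FRISCR in live cells (61.7 to 584), with log2 ratios of 6.52 and 8.50 in the sets. It had 275, 121 and 401 counts in live FRISCR replicates 1, 4 and 11 and 0 in the other 12, and 3 and 1 counts in live Triton replicates 2 and 7 and 0 in the other 9. Most cells of both groups were therefore at 0 and overlapped, and the log2 ratio of 7.31 became 6.39 without live FRISCR replicate 11 and 9.16 without live Triton replicate 2. In fixed FRISCR cells all 229 counts of HIST2H2BE came from replicate 11, the cell with the highest histone sum of its group. HIST1H2BH had 0, 5.57 and 13.5 CPM in the lowest, median and highest live FRISCR cell and 0, 5.15 and 18.2 CPM in live Triton cells (1.28-fold lower with FRISCR, 1.11 to 1.47), with log2 ratios of -0.76 and 0.07 in the sets. HIST1H2BK had 4.41 CPM in live FRISCR and 3.51 CPM in live Triton cells, and HIST1H2BD had 4.24 CPM in live FRISCR and 0.934 CPM in live Triton cells, both below the 5 CPM used for calls.

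H3 had 126 counts in fixed FRISCR, 156 in live FRISCR, 1748 in fixed Triton and 1507 in live Triton cells. No H3 row reached 5 CPM in either live group. HIST1H3B had 0 counts in fixed FRISCR and in live FRISCR cells and 446 in fixed Triton and 124 in live Triton cells. HIST2H3A, which cannot be told from HIST2H3C, had 4 counts in live FRISCR and 269 in live Triton cells (84.5-fold lower, 32.6 to 312), and its log2 ratio of -6.40 became -7.29 without live FRISCR replicate 3.

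In fixed cells the distance between procedures was wider. The summed level was 37.6-fold lower in fixed FRISCR than in fixed Triton cells (36.4 to 38.8), a log2 ratio of -5.23, with -5.41 and -5.14 in the sets and -5.42 to -5.01 with any 1 cell left out. Most genes were higher with FRISCR, with a median of 1.87 by total counts and 1.16 by TMM, and the histone sum lay 7.10 below that median on the log2 scale. H1 was 397-fold lower (310 to 517), H4 53.0-fold lower (50.7 to 55.5), H3 26.1-fold lower (21.8 to 31.5), H2A 18.3-fold lower (16.8 to 19.8) and H2B 4.16-fold lower (3.88 to 4.46). All 63 H1 counts of fixed FRISCR cells came from replicate 8. Without it the group had 0 H1 counts, and the log2 ratio, -8.63 with all cells, was -12.91 at the floor of 3 counts, which is a bound. The H2B log2 ratio of -2.06 became -1.22 without fixed Triton replicate 6.

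Of 26 rows with at least 5 CPM in either fixed group, all 26 were over 2-fold lower with FRISCR, against 11% of 10903 genes, and 0 were over 2-fold higher, against 63%. All of them reached 5 CPM with Triton, so their direction was in part set by that filter. Of the 26, 18 were lower in both library sets and 19 with any 1 cell left out. HIST1H4C had 0, 0.848 and 19.9 CPM in the lowest, median and highest fixed FRISCR cell and 137, 2009 and 2967 CPM in fixed Triton cells, with no overlap (301-fold lower, 268 to 338). HIST1H4J had 10.8, 28.0 and 49.8 CPM in fixed FRISCR and 38.1, 117 and 283 CPM in fixed Triton cells, and these groups overlapped (5.67-fold lower, 5.35 to 6.01). HIST1H1E, HIST1H1A and HIST1H1D had 0 counts in fixed FRISCR cells and were at least 2601-fold, 1775-fold and 1490.2-fold lower. The log2 bound of HIST1H1A went to -9.66 without fixed Triton replicate 1, against -10.79 with all cells, and that of HIST1H1D to -9.76 without replicate 6, against -10.54.

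**Figure D3:**
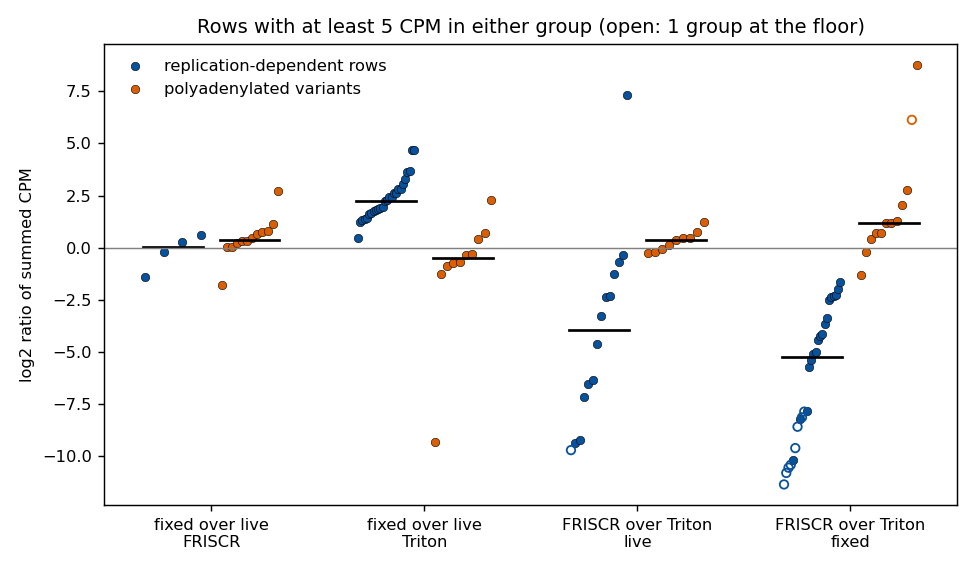
Log2 ratio of summed CPM in the 4 contrasts for replication-dependent rows (blue) and polyadenylated variants (orange) with at least 5 CPM in either group, with the median as a line and open points where a group was at the floor. Blue points number 4, 26, 14 and 26; they lie above 0 for fixed over live Triton and below 0 in both FRISCR over Triton contrasts, apart from HIST2H2BE at 7.31 in live cells.

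Fixed and live cells lysed with Triton were compared next. The histone sum was higher in fixed cells while most genes were lower, although some scarce rows were lower too, such as HIST1H2AC with 0 counts in fixed Triton and 198 in live Triton cells. The summed level was 3.79-fold higher in fixed Triton than in live Triton cells (3.75 to 3.84), a log2 ratio of 1.92, against a median of -1.73 for all genes. The sets gave 1.60 and 2.26, leaving out 1 cell gave 1.70 to 2.15, and fixed and live Triton cells overlapped. By TMM the histone ratio was 2.55 and the median of all genes -1.11, and the histone sum lay 3.66 above that median, a difference that a scaling factor cannot alter. All 5 types were higher: H2A 4.39-fold (4.20 to 4.58), H4 3.94-fold (3.88 to 4.00), H1 3.46-fold (3.36 to 3.56), H2B 3.22-fold (3.03 to 3.44) and H3 2.30-fold (2.15 to 2.47). The H2B log2 ratio of 1.69 became 0.86 without fixed Triton replicate 6. HIST2 cluster rows had 40.6 CPM in fixed Triton and 28.3 CPM in live Triton cells (1.43-fold higher, 1.33 to 1.55), against 3.91-fold higher (3.86 to 3.96) for the HIST1 cluster. HIST3 had 11.2 CPM in fixed Triton and 3.81 CPM in live Triton cells, and the single HIST4 row was lower, at 1.44 CPM in fixed Triton and 2.59 CPM in live Triton cells.

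Of 26 rows with at least 5 CPM in either Triton group, 25 were over 2-fold higher in fixed cells, against 12.4% of 10654 genes, and 0 were over 2-fold lower, against 60.8%. All 26 reached 5 CPM in fixed Triton cells and only 13 in live Triton cells, so their direction was in part set by that filter. Only 15 of the 25 were higher in both library sets, and the same number were higher with any 1 cell left out. HIST1H4C had 137, 2009 and 2967 CPM in the lowest, median and highest fixed Triton cell and 43.3, 269 and 1071 CPM in live Triton cells (3.91-fold higher, 3.85 to 3.97). HIST1H4J was 5.46-fold higher (5.16 to 5.78) and HIST1H1E 4.70-fold higher (4.44 to 4.97). HIST1H2AM had 69.6 CPM in fixed Triton and 5.64 CPM in live Triton cells (12.3-fold higher, 11.0 to 13.9), a log2 ratio of 3.63 that became 2.76 without fixed Triton replicate 1. HIST1H2AI had 20.1 CPM in fixed Triton and 0.778 CPM in live Triton cells (25.8-fold higher, 19.0 to 35.7), and was over 2-fold higher in both sets. HIST2H2AC was the only row at this level within 2-fold (12.3 CPM in fixed Triton and 8.96 CPM in live Triton cells).

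Several fixed Triton values rested on 1 cell. HIST1H2AK had 245 counts in fixed Triton cells, all from replicate 7, and its log2 ratio over live Triton of 4.68 became a bound of -1.44 at the floor without that cell. HIST1H2BK (2.61) became -2.36 without replicate 1, HIST1H2BD (2.80) became a bound of -2.92 without replicate 2, its only fixed Triton cell with a count, and HIST1H3H (1.36) became -6.27 without replicate 2. HIST1H2BH (1.42) became -0.43 and HIST1H2BC (2.62) became -0.71 without replicate 6. HIST1H1A (1.82) became 0.69 without replicate 1, HIST1H1D (1.25) became 0.47 and HIST1H4E (1.87) became 0.18 without replicate 6. HIST1H1D in fixed Triton replicates 1 to 7 had 706, 17, 438, 4, 0, 1212 and 1 counts, while all 11 live Triton cells had a count. The fixed Triton libraries thus held high values of different members in different cells.

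Fixed and live cells prepared by FRISCR were compared as well. The histone level differed little between them, with a ratio of 0.918 (0.881 to 0.956) and a log2 ratio of -0.12 that lay between -0.28 and 0.04 when 1 cell was left out. The median of all genes was -0.03, and fixed and live FRISCR cells overlapped. H4 was 1.42-fold higher in fixed FRISCR cells (1.33 to 1.52, log2 0.53 and 0.47 in the sets), and H2B was 1.49-fold lower (1.39 to 1.60, log2 -0.68 and -0.49). The H2B log2 ratio of -0.58 became -0.13 without live FRISCR replicate 11 and -0.99 without fixed FRISCR replicate 11. H2A had a log2 ratio of -0.35 and H3 of 0.10. H1 was 4.02-fold lower (3.07 to 5.35), which rested on 63 counts in fixed FRISCR replicate 8 and 336 counts in live FRISCR cells, and its log2 ratio of -2.01 became a bound of -6.29 at the floor without that cell.

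Only 4 rows had at least 5 CPM in either FRISCR group, of which 1 was over 2-fold lower in fixed cells, against 12.2% of 11221 genes, 0 were over 2-fold higher, against 7.95%, and 3 were within 2-fold, against 79.9%. HIST1H4J was 1.53-fold higher in fixed FRISCR cells (1.42 to 1.65), with 28.0 CPM in fixed FRISCR and 18.2 CPM in live FRISCR cells, and kept its direction in both sets and with any 1 cell left out (log2 0.51 to 0.75). HIST1H4C had 5.51 CPM in fixed FRISCR and 4.59 CPM in live FRISCR cells, a log2 ratio of 0.27 that lay between -0.05 and 0.83 with 1 cell left out. HIST1H2BH had 4.60 CPM in fixed FRISCR and 5.29 CPM in live FRISCR cells. HIST2H2BE, with 4.18 CPM in fixed FRISCR and 11.0 CPM in live FRISCR cells, was the row called lower (2.63-fold, 2.26 to 3.05). Its log2 ratio of -1.39 became -0.47 without live FRISCR replicate 11, and a bound of -7.54 at the floor without fixed FRISCR replicate 11, which held all its fixed FRISCR counts.

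The difference of both fixation ratios (log2 of fixed over live with Triton minus that with FRISCR) was 2.05 for the histone sum, with 1.87 and 2.29 in the sets. By type it was 3.80 for H1, 2.48 for H2A, 2.26 for H2B, 1.47 for H4 and 1.10 for H3, positive for each type in both sets. For the polyadenylated variants it was -0.83, with -1.20 and -0.46 in the sets. The difference has no replicate check beyond the sets. For H1 even these are weak. Fixed FRISCR cells had 0 H1 counts in set 1, so that difference is a bound at the floor, and in set 2 only replicate 8 had any.

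Types were compared with each other on the TPM scale, which corrects for transcript length. H4 took 63.2% of the summed histone TPM in fixed FRISCR, 47.5% in live FRISCR, 79.2% in fixed Triton and 78.4% in live Triton cells. H2B took 18.7% in fixed FRISCR, 26.2% in live FRISCR, 2.45% in fixed Triton and 3.09% in live Triton cells, and H2A 14.3%, 20.0%, 7.60% and 6.44%. H1 took 0.873%, 3.37%, 8.92% and 9.19%, and H3 stayed between 1.87% and 2.96% in all 4 groups. The leading H4 member differed by procedure. HIST1H4J gave 81.9% of H4 TPM in fixed FRISCR and 77.7% in live FRISCR cells, with mean levels of 176 ± 83.4 TPM in fixed FRISCR (SD over 12 cells) and 122 ± 82.2 TPM in live FRISCR (SD over 15 cells). HIST1H4C gave 87.2% of H4 TPM in fixed Triton and 88.5% in live Triton cells, with mean levels of 5463 ± 3922 TPM in fixed Triton (SD over 7 cells) and 2387 ± 1775 TPM in live Triton (SD over 11 cells). In every Triton cell HIST1H4C took at least 43.6% of the histone TPM, and in every FRISCR cell at most 27.1%, so the cells of both procedures did not overlap in this share.

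**Figure D4:**
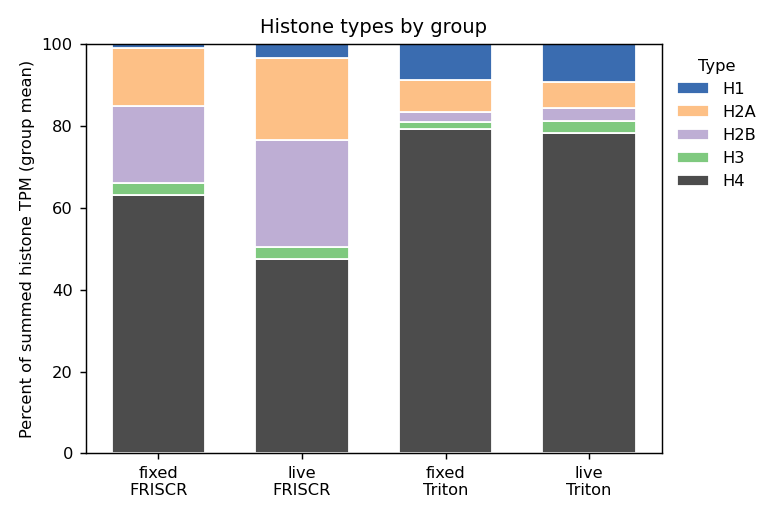
Share of the summed histone TPM (group mean, in percent) taken by each histone type in each of the 4 groups, as stacked bars that add to 100%. H4 takes 79.2% and 78.4% with Triton, and H2A and H2B together are the wider bands with FRISCR.

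Because HIST1H4C dominates the Triton sums, the comparison was repeated without it. The other 71 rows were 3.89-fold lower with FRISCR than with Triton among live cells (3.77 to 4.01) and 15.6-fold lower among fixed cells (15.1 to 16.2). With Triton they were 3.62-fold higher in fixed cells (3.55 to 3.69).

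In live Triton cells the histone types varied together from cell to cell. In fixed Triton cells H2B and H3 did so less evenly when all 7 cells were kept. The lowest, median and highest H1 level was 27.3, 338 and 999 CPM in fixed Triton and 20.6, 77.0 and 305 CPM in live Triton cells, and H4 had 254, 2243 and 3383 CPM in fixed Triton and 62.1, 301 and 1187 CPM in live Triton cells. Across the 11 live Triton cells, log2(CPM + 1) of H1 and H4 had a Pearson r of 0.86 and a Spearman rho of 0.83, and r was 0.78 without the 2 cells farthest from the median of H1. Within library set 2 (6 cells) r was 0.84, and set 1 had too few cells. H2A, H2B and H3 had an r with H4 of 0.84, 0.82 and 0.84 in the same cells. Among the 7 fixed Triton cells r of H1 with H4 was 0.96 (rho 0.96, and 0.77 without the 2 farthest cells), but replicates 4 and 5 lay far below the rest, at 312 and 366 CPM of all histone rows against 1502 to 4774 CPM. In these 7 cells r with H4 was 0.96 for H2A, 0.69 for H2B (rho 0.74) and 0.46 for H3 (rho 0.32). Without the 2 cells farthest from the median of the type named, it was 0.85 for H2A, 0.92 for H2B and 0.83 for H3. The same step gave 0.77, 0.72 and 0.77 in live Triton cells, so the lower values of H2B and H3 rested on 2 cells. With FRISCR r was 0.33 over 12 fixed and -0.11 over 15 live cells, at counts too sparse to read. These points share a library preparation and a total to which each is scaled, so the values describe the cells and carry no test.

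**Figure D5:**
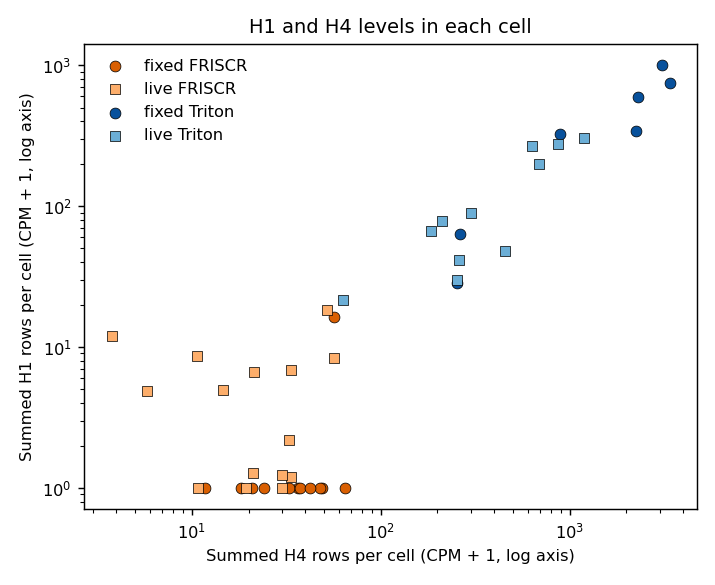
Summed H1 level against summed H4 level in each of the 45 cells, both as CPM + 1 on log axes, with a point per cell and the colour and shape marking the group. Triton cells (blue) lie along a rising band whose H1 level runs from 20.6 to 999 CPM, while FRISCR cells (orange) lie at or below 17.3 CPM of H1, 11 of the 12 fixed cells at 0.

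The histone level was also set against S-phase genes. The 30 S-phase rows (replication and nucleotide synthesis genes such as the MCM helicase subunits) summed to 4556 CPM in fixed FRISCR, 5462 in live FRISCR, 1381 in fixed Triton and 4987 in live Triton cells. Across cells, the S-phase score and the log2 histone level had a Pearson r of 0.02 (rho -0.22) over 11 live Triton cells, and -0.19 without the 2 cells farthest from the median score. Over 7 fixed Triton cells r was -0.01, and 0.54 without the 2 farthest cells, too few cells to read. It was 0.65 (rho 0.56) over 15 live FRISCR cells, but 0.24 without the 2 cells farthest from the median score, so that relation rested on those cells. Over 12 fixed FRISCR cells r was 0.33 (rho 0.30), and 0.25 without the 2 farthest cells. Genes of histone mRNA synthesis and processing, 19 rows, summed to 890 CPM in fixed FRISCR, 1057 in live FRISCR, 344 in fixed Triton and 1029 in live Triton cells. Of those at 5 CPM, 15 of 17 were within 2-fold between live FRISCR and live Triton cells, against 81.3% of all genes, and 13 of 17 were over 2-fold lower in fixed Triton cells against live Triton cells, against 60.8%. SLBP, the stem-loop binding protein, had 51.1 CPM in fixed FRISCR, 68.4 in live FRISCR, 28.2 in fixed Triton and 47.8 in live Triton cells. NPAT, a coactivator of histone gene transcription, had 39.6, 32.7, 5.97 and 45.6 CPM in the same order.

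A set of 6 members is known to give polyadenylated transcripts (HIST1H1C, HIST1H2AC, HIST1H2BC, HIST1H2BD, HIST1H2BK and HIST2H2BE). Together they had 14.0 CPM in fixed FRISCR, 23.4 in live FRISCR, 104 in fixed Triton and 26.9 in live Triton cells. Among live cells they were 1.15-fold lower with FRISCR (1.07 to 1.23), against 12.5-fold lower (12.1 to 12.9) for the other 66 rows, with log2 ratios of -0.20 and -0.16 for the 6 in the sets. The ratio of the 66 leans on HIST1H4C, which held 24481 of the 41003 histone counts in live Triton cells. With HIST1H4C left out, all other members, the 6 included, had a log2 ratio of -1.96. The sum of the 6 joins members of opposite direction. HIST2H2BE was higher with FRISCR, while HIST1H1C was lower, HIST1H2AC had 0.496 CPM in live FRISCR and 3.42 CPM in live Triton cells, and HIST1H2BC had 0 counts in live FRISCR and 135 in live Triton cells. Without HIST2H2BE the other 5 had 12.4 CPM in live FRISCR and 26.8 CPM in live Triton cells (2.16-fold lower, 1.99 to 2.35), an alternative chosen after seeing the data. The log2 ratio of the 6, -0.20, became -0.75 without live FRISCR replicate 11. HIST1H4J and HIST1H2BH, which were within 2-fold, are not among the 6. HIST2H2BC, which GENCODE release 29 holds as a transcribed unprocessed pseudogene, had 3.34 CPM in fixed FRISCR, 2.80 in live FRISCR, 16.3 in fixed Triton and 1.64 in live Triton cells.

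The polyadenylated variants lay within 2-fold between procedures in live cells for 8 of the 9 rows at 5 CPM, against 81.3% of all genes, with 1 over 2-fold higher and 0 lower. H2AFZ, the H2A variant found at promoters, had 2415 CPM in fixed FRISCR, 1754 in live FRISCR, 1453 in fixed Triton and 1834 in live Triton cells. H3F3B, which encodes the replacement histone H3.3, had 1407, 1205, 578 and 1381 CPM, and H3F3A, which encodes the same protein, had 916, 730, 695 and 520 CPM in the same order. Other rows for RNA without a poly(A) tail were too low to compare as a group, since of 405 listed rows 1 reached 5 CPM in the live groups. This was MALAT1, a nuclear long noncoding RNA whose end is a triple helix, with 132 CPM in fixed FRISCR, 149 in live FRISCR, 1334 in fixed Triton and 1192 in live Triton cells. Between the fixed groups 3 listed rows reached 5 CPM, and all 3 were over 2-fold lower with FRISCR, against 11% of all genes. Between the Triton groups 2 of 3 were over 2-fold higher in fixed cells, against 12.4%. These rows are too few to describe the list.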

How the data were processed

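The authors deposited 2 tables of 23045 rows with a column for each of 45 cells, one of estimated counts per gene and one of TPM values. Per the submitters' processing notes the genome was GRCh37 (hg19). The sources used here do not give the quantifier or annotation. Estimated counts were rounded to whole numbers, since 40.3% of the nonzero values were not whole. No cell was left out, and the highest correlation between 2 cells was 0.85.

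Within a group, the cells' counts were added and scaled to the added totals (CPM). Ratios carry an exact 95% interval from the binomial split, and a group with 0 counts was given 3 as its floor. Calls used a 2-fold ratio and at least 5 CPM in either group. TPM served for comparing genes. Each group is 1 sample, so no p-value was computed, and edgeR 4.0.16 (TMM) and DESeq2 1.42.0 (median of ratios) in R 4.3.3 supplied alternative scalings only. Other steps ran in Python 3.11.15 and were tested on simulated data. Alternatives were the scaling, the level filter, the fold, TPM, each library set and leaving out each cell. Rows named were the 3 highest by TPM of each type, the 2 lowest and 2 highest per contrast and any opposite to the sum in both sets, the members with known polyadenylated transcripts and the rows at 0. HIST1H2BG was named as the member with the most A in a window. Members, lists and rules were chosen with earlier results of these data known.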

Additional observations from a re-analysis of the deposited data

Results flagged for a closer look

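In the 7 fixed Triton cells, 7 of 22 values tested had 1 cell far above the others, by the gap to the nearest cell over the whole range. Chance marks about 1 in 20 groups where values are independent and normally distributed. These rows share the same cells, and 4 of the 7 marks fall on replicate 6. All marked rows but HIST1H3B had a median of 0, so the rate need not hold here. HIST1H2BH had 87.7 CPM in replicate 6, with the next cell at 33.6 CPM. HIST1H2BK had 142 CPM in replicate 1, with the next at 3.49 CPM. HIST1H3B had 63.9 CPM in replicate 6, with the next at 24.6 CPM. HIST1H3H had 49.3 CPM in replicate 2, with the next at 0.232 CPM. HIST1H4E had 199.8 CPM in replicate 6, with the next at 71.4 CPM. HIST2H2BC had 79.0 CPM in replicate 6, with the next at 23.7 CPM. HIST2H3A had 22.7 CPM in replicate 2, with the next at 9.15 CPM.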

How the results depend on the processing

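No paired analysis was possible because the labels give no replicate numbers shared between groups and no test was run. On the log2 scale, the summed histone level of fixed over live FRISCR cells (-0.12) was -0.24 by median of ratios, 0.042 by mean TPM, -0.27 and -0.032 in sets 1 and 2 and -0.53 without HIST1H4C and HIST1H4J, an alternative chosen after seeing the data. Leaving out 1 cell gave -0.28 to 0.043. For fixed over live Triton (1.92) the values were 2.55 by TMM, 2.42 by median of ratios, 2.54 without rRNA-named and abundant rows, 1.89 by the mean of cells, 1.20 by mean TPM, 1.60 and 2.26 in the sets, 1.86 without HIST1H4C and 1.77 without both, with 1.70 to 2.15 leaving out 1 cell. For FRISCR over Triton in live cells (-3.18) they were -3.06 by median of ratios, -3.29 without rRNA-named and abundant rows, -3.39 by mean TPM, -3.54 and -2.85 in the sets, -1.96 without HIST1H4C and -2.22 without both, with -3.35 to -2.96 leaving out 1 cell. In fixed cells (-5.23) they were -5.94 by TMM, -5.72 by median of ratios, -5.94 without rRNA-named and abundant rows, -5.13 by the mean of cells, -4.54 by mean TPM, -5.41 and -5.14 in the sets, -3.97 without HIST1H4C and -4.52 without both, with -5.42 to -5.01 leaving out 1 cell.

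Counts of members over 2-fold varied with the filter. For fixed over live FRISCR the 1 lower was 0 at 20 CPM, 22 with no filter and 0 at 4-fold (0 to 1 leaving out 1 cell), and the 0 higher was 11 with no filter and 1 in set 1. For fixed over live Triton the 0 lower was 19 with no filter and 1 in set 1, and the 25 higher was 14 at 20 CPM, 14 at 4-fold and 15 in set 1 (20 to 25). For FRISCR over Triton in live cells the 11 lower was 5 at 20 CPM and 41 with no filter (10 to 13), and the 1 higher was 0 and 4. In fixed cells the 26 lower was 14 and 41 (25 to 28), and the 0 higher was 9 with no filter and 1 in set 2. Of the 25 members called higher in fixed over live Triton, 15 kept their direction with any 1 cell left out, and of the 26 called lower in FRISCR over Triton in fixed cells 19 did. Among named rows, log2 ratios changed sign for fixed over live Triton in HIST1H2AK (-1.91 in set 1, -1.44 without fixed Triton replicate 7 to 8.80 without live Triton replicate 5), HIST1H2BC (-0.66 in set 1, -0.71 to 3.01 leaving out 1 cell, lowest without fixed Triton replicate 6), HIST1H2BD (-1.19 in set 2, -2.92 to 4.04, replicate 2), HIST1H2BH (-0.17 in set 1, -0.43 without replicate 6), HIST1H2BK (-1.73 in set 2, -2.36 to 3.50, replicate 1) and HIST1H3H (-3.83 in set 2, -6.27 to 1.88, replicate 2). For FRISCR over Triton in fixed cells they did so in HIST1H2BD (2.33 in set 2, -2.68 to 4.10 leaving out 1 cell, highest without fixed Triton replicate 2), HIST1H2BK (0.33 in set 2, -3.16 to 2.61, replicate 1) and HIST1H3H (-7.09 to 3.48, replicate 2). The values with a changed sign of HIST1H2AK and HIST1H2BD, and of HIST1H3H in set 2, have 0 fixed Triton counts and are bounds set by the floor. Without HIST2H2BE, chosen after seeing the data, the 6 polyadenylated members' log2 ratio of FRISCR over Triton in live cells (-0.20) was -1.11. The cause was not tested.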
